A study of Mus musculus with 6 samples.

Results

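The mitochondrial carriers of the SLC25 family were examined in isolated mouse pancreatic islets, small organs of hormone-secreting cells in which insulin-producing beta cells predominate. The members were all rows of the mouse count table whose Ensembl ID carries a GENCODE M21 symbol of the form Slc25a plus a number, without Slc25a1, Slc25a11 and Slc25a20. The rule found 44 genes of 46983 in the table, and it used no measured value. A processed pseudogene of Slc25a5 was left out because its symbol has a suffix, and it held at most 2 counts in any library. Polyadenylated RNA was measured in 6 bulk libraries of wild-type islets, 3 kept in culture at low (non-stimulating) glucose and 3 at high (stimulating) glucose for 24 h. Every library came from the same genotype and no other agent is named in the labels. The sources used here do not give the glucose concentrations, the mouse strain, the age of the mice or how many mice went into a library. No label says whether the replicates are separate mice or cultures, so the p-values rest on a spread between samples that may be technical.

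SLC25 carriers are small membrane proteins, nearly all of the mitochondrial inner membrane, that exchange or import the solutes which cannot cross that membrane alone: nucleotides, phosphate, amino acids, carboxylates, coenzymes and iron. Each is built from repeated pairs of membrane-spanning helices and most swap one solute for another. In beta cells, glucose oxidation in mitochondria raises the ratio of ATP to ADP, which closes potassium channels and starts insulin release. Carriers supply that process with ADP, phosphate and reducing equivalents, and they carry metabolites from mitochondria to the cytosol.

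The libraries held 10596020 to 12730985 counts at low glucose and 14150726 to 15846235 at high glucose. Beta-cell markers, none of the 10 at 0, summed to 1.47 to 3.17% of counts at low glucose and 2.42 to 7.08% at high glucose, ranges that overlapped. By the test described below, 5 of the 10 were lower at high glucose and 0 higher. The sums are shares of all counts, while the test sets the typical gene of each library level with the others. Sums and calls can thus differ in direction. Beside the calls of each marker list stand 13.3% of all tested genes called higher and 14.2% called lower. Markers of acinar cells, the enzyme-secreting cells around the islets, summed to 48.9 to 64.7% of counts at low glucose and 12.6 to 25% at high glucose, with 25 of 28 lower at high glucose and none at 0. All 13 intestinal epithelium markers were lower at high glucose, with sums of 0.118 to 0.586% against 0.02 to 0.04%, and none was at 0. Duct-cell markers moved the other way, with 3 of 6 higher, none at 0, and sums of 0.0153 to 0.0242% against 0.332 to 0.552%. Markers of brown fat and muscle, tissues rich in some of these carriers, summed to at most 0.000445% in any library. The SLC25 genes together held 0.0653 to 0.109% of counts at low glucose and 0.128 to 0.169% at high glucose. Outside the acinar markers they held 0.174 to 0.214% and 0.17 to 0.193%, ranges that overlapped. In bulk samples, fewer cells of a type and less RNA per cell cannot be told apart, and the part of the other cell types in the results below was not tested.

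Of the 44 genes, 34 had enough counts to be tested. At high glucose 3 of them rose, which is 8.82% where 13.3% of all 13996 tested genes rose, and 9 fell, which is 26.5% where 14.2% of all genes fell. The other 22 did not pass the threshold, an adjusted p of 0.05 from edgeR's quasi-likelihood test over all tested genes. The counts by substrate group below stand beside the same 13.3% and 14.2% of all genes. The carriers that rose were Slc25a33, Slc25a30 and Slc25a25. Those that fell were Slc25a45, Slc25a35, Slc25a23, Slc25a15, Slc25a10, Slc25a5, Slc25a42, Slc25a16 and Slc25a36. The median log2 fold change (high minus low glucose) was -0.20 over the tested carriers and 0.01 over all genes, with 13 carriers positive and 21 negative. The libraries of the groups did not overlap in 16 of the 34, against 45.9% of all genes. Low glucose was above in 11 of these (22.4% of all genes) and high glucose in 5 (23.5% of all genes). Members that passed the count filter only through one group are among these 34, so the counts describe the tested genes and not the family.

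All of these directions are relative to TMM scaling, which sets the typical gene of each library level with that of the others. With library totals instead, the median of all genes moved to a log2 fold change of 1.16 and that of the carriers to 0.97, with 20 carriers higher and 2 lower where 59.6% and 4.49% of all genes were called. With hormone and granule genes as the scale, the all-gene median was 0.29, and 2 carriers were higher (Slc25a30 and Slc25a33) and 2 lower (Slc25a35 and Slc25a45) where 7.52% and 7.5% of all genes were called. Where a direction reversed with library totals, the value stands beside the gene. Measured against the all-gene median of each scaling, Slc25a5 lay at -0.96 with TMM, -0.94 with library totals and -0.98 with the hormone and granule genes. A scaling moves all genes by about the same amount, so this distance was bound to change little and is no separate test. Slc25a5 itself passed with neither library totals (0.23, edgeR adjusted p = 0.5225) nor hormone and granule genes as the scale (-0.69, edgeR adjusted p = 0.2718).

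**Figure D1:**
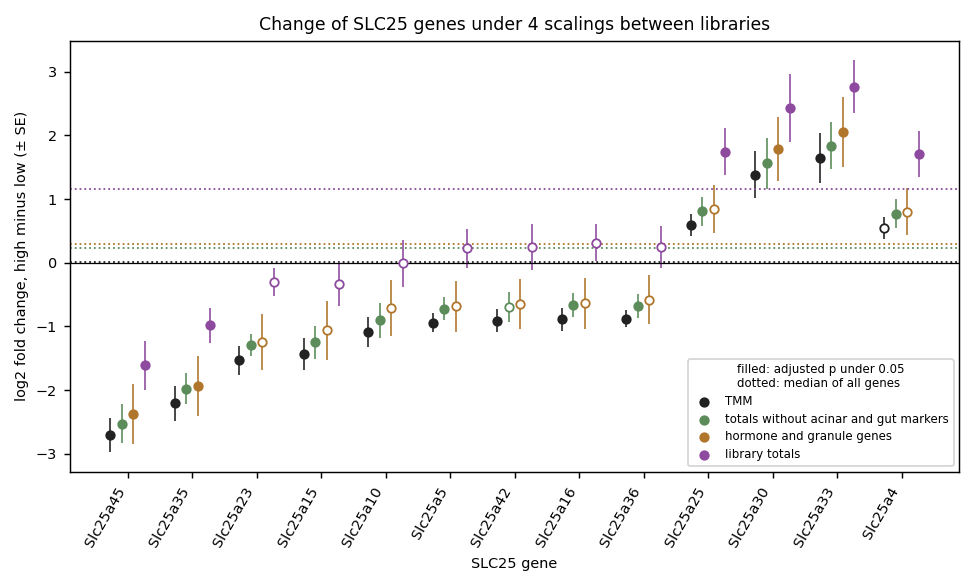
The log2 fold change (vertical axis, high minus low glucose, bars ± SE) of each named SLC25 gene is drawn under 4 scalings between libraries, filled where the adjusted p was under 0.05, with a dotted line at the median of all genes for each scaling. Library totals lift every gene by about the same amount. Slc25a5 thus moves from -0.94 to 0.23, and its distance from the all-gene median, by construction, hardly moves.

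Levels per exon length give the order of the carriers in the RNA of these libraries, of which acinar markers made up 48.9 to 64.7% of counts at low glucose and 12.6 to 25% at high glucose. Slc25a5, an ADP/ATP carrier, came first with 90.8 ± 1.60 RPKM at low glucose and 47.2 ± 4.49 at high glucose (SD, n = 3 each). Slc25a39, which imports glutathione, followed with 48.6 ± 12.7 and 32.8 ± 2.61 RPKM, and Slc25a3, the phosphate carrier, with 32.8 ± 4.57 and 27.8 ± 1.39 RPKM. Slc25a4, the ADP/ATP carrier known from heart and muscle, had 18.9 ± 2.06 RPKM at low glucose and 27.7 ± 4.93 at high glucose. Slc25a51, which imports NAD, was the fifth with 16.6 ± 1.05 and 14.1 ± 0.55 RPKM. At high glucose the levels of Slc25a3 and Slc25a4 by merged exon length did not differ beyond their spread. This rests on the lengths, as 154.2 and 65.15 CPM were divided by 5550 and 2353 bases. With the longest transcript as gene length the levels of all 5 genes moved. At low glucose Slc25a5 stood above the others by more than the SDs of both. The mean over the 6 libraries was 69.0 RPKM for Slc25a5 and 11.55 for Slc25a23, the next gene after these 5, and the order of the 5 was the same with library totals and with the longest transcript as gene length.

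**Figure D2:**
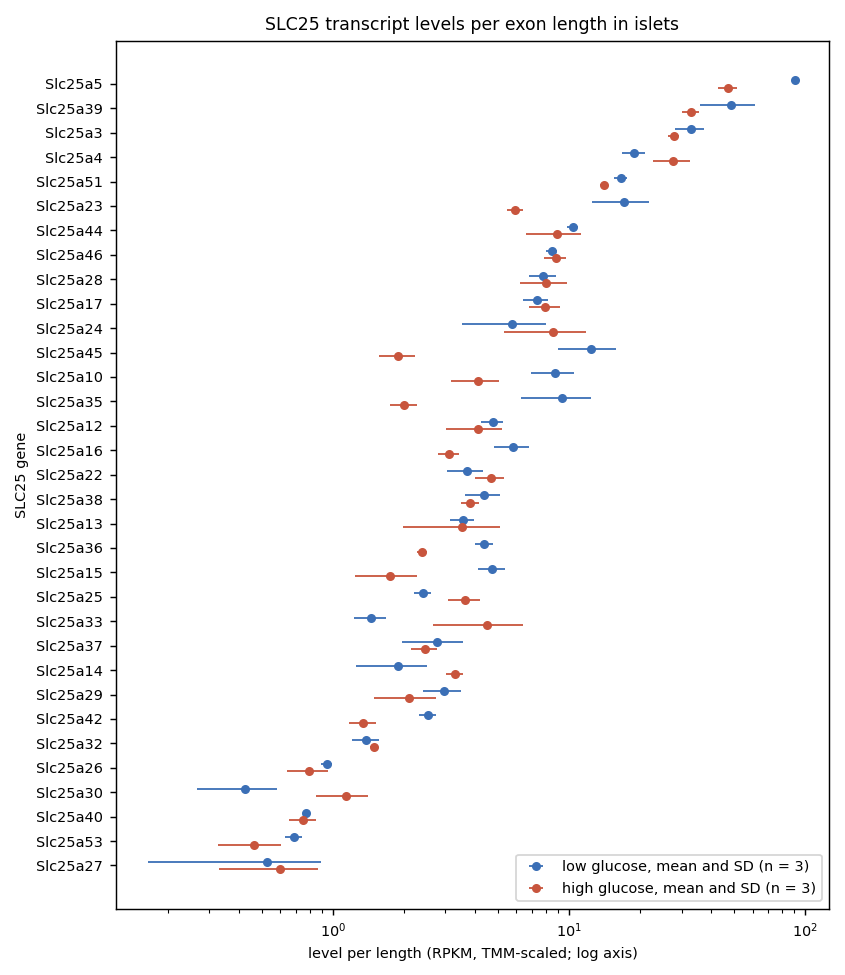
The level per exon length (horizontal axis, RPKM with TMM-scaled library sizes, log axis) of the tested SLC25 genes is given as mean and SD of 3 libraries at low and at high glucose. Slc25a5 leads at 90.8 and 47.2 RPKM, and the gap between the groups is wide for Slc25a45, at 12.4 and 1.90 RPKM.

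The promoters of 5 carriers are shown because they set side by side the ADP/ATP carriers and the pyrimidine nucleotide carriers, pairs whose shares of counts did not overlap between the groups, and the tested carrier with the largest decrease. Each is the 250 bases before the RefSeq start site on GRCm38.p6, 5′ to 3′ on the gene's strand, with matches to searched motifs in capitals. The motifs were the E-box CACGTG, the cAMP response element TGACGTCA, the AP-1 site TGANTCA, the NRF-1 site, the TATA box TATAAA, the CCAAT box CCAAT and the GC box GGGCGG, on both strands. The windows lie at chr8:46211063-46211312 (minus strand) for Slc25a4, chrX:36795347-36795596 (plus) for Slc25a5, chr4:149774268-149774517 (minus) for Slc25a33, chr9:97111042-97111291 (minus) for Slc25a36 and chr19:5877572-5877821 (plus) for Slc25a45. GENCODE places the outermost start of Slc25a4, Slc25a33, Slc25a36 and Slc25a45 inside the window and that of Slc25a5 downstream of it.
Slc25a4 promoter: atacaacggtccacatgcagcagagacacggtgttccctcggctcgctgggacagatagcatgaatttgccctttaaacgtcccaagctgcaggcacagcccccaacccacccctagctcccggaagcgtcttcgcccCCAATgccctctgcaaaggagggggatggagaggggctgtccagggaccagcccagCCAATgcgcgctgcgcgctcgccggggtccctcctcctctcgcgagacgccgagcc
Slc25a5 promoter: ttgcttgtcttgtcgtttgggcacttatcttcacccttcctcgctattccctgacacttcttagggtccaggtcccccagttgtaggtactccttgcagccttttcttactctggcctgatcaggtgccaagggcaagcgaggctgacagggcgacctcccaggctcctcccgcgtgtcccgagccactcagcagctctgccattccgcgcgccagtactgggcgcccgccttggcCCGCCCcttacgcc
Slc25a33 promoter: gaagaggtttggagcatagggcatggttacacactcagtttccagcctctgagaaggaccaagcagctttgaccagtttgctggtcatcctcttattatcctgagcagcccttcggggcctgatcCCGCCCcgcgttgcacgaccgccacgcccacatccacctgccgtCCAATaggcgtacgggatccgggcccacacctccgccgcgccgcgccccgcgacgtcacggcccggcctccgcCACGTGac
Slc25a36 promoter: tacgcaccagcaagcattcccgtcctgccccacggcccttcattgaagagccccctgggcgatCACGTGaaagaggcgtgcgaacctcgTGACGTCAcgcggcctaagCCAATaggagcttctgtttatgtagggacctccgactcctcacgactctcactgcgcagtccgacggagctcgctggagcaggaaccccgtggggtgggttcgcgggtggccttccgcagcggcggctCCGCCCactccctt
Slc25a45 promoter: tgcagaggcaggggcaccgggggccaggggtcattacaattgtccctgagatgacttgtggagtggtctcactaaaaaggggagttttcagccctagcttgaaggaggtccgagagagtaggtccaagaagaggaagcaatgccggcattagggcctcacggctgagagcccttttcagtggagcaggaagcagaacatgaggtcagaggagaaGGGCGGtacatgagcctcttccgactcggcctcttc
The Slc25a4 window holds 2 CCAAT boxes and the Slc25a5 window holds 1 GC box and no CCAAT box. The Slc25a33 window holds an E-box, a CCAAT box and a GC box. Slc25a36 has these same 3 motifs and a cAMP response element. The Slc25a45 window holds 1 GC box. The E-box, a site of MYC- and USF-family factors, was found in 6.02% of all 32851 promoter windows. The cAMP response element was found in 1.55%, the CCAAT box in 33.8% and the GC box in 32.7% of them. A match is a description of letters, and no binding was measured.

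ADP/ATP carriers bring ADP into the matrix and release ATP, and the phosphate carrier supplies the phosphate that ATP synthase adds. Slc25a5 fell and Slc25a4 lay higher without passing the test. Slc25a5 (ENSMUSG00000016319, chrX:36795651-36798807, GRCm38) had 146.5, 150.9 and 151.1 CPM at low glucose and 86.2, 72.6 and 74.3 at high glucose. All 3 low-glucose libraries lay above all 3 high-glucose libraries. Its log2 fold change was -0.94 ± 0.15 (SE; edgeR adjusted p = 0.00459), and 0.23 with library totals. Slc25a4 (ENSMUSG00000031633, chr8:46206797-46211284) had 48.5, 39.1 and 45.8 CPM at low glucose and 78.5, 58.5 and 58.4 at high glucose. Its groups did not overlap either, with high glucose above, and its log2 fold change of 0.55 ± 0.17 missed the threshold (edgeR adjusted p = 0.051). With the replicate number as a block the value for Slc25a4 was 0.55 (edgeR adjusted p = 0.0320), and DESeq2 also called it (0.55, DESeq2 adjusted p = 0.0368). Slc25a3 had 182.7, 207.1 and 156.5 CPM at low glucose against 162.1, 146.7 and 153.7 at high glucose. Its groups overlapped and its log2 fold change was -0.24 (edgeR adjusted p = 0.331), or 0.92 with library totals. Processed copies of Slc25a5 elsewhere in the genome make the split of its reads uncertain. Slc25a31, the ADP/ATP carrier of the testis, held 4 counts in all.

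The balance between the pair does not depend on how libraries are scaled. Slc25a4 held 24.9, 20.6 and 23.2% of the counts of Slc25a4 and Slc25a5 at low glucose and 47.7, 44.6 and 44.0% at high glucose. The mean share went from 22.9 ± 2.17% to 45.4 ± 1.97% (SD, n = 3 each), a difference of 22.55 percentage points. The groups did not overlap, and the exact permutation p was 0.1, the smallest that 3 against 3 libraries allow (0.225 after Benjamini-Hochberg adjustment over 9 pairs). The acinar share of counts went, over the same libraries, from 48.9, 64.7 and 62.4% to 12.6, 25 and 24.1%, and its part in this shift was not tested. Within the low-glucose group, the library with the smallest acinar share had the highest Slc25a4 share and the one with the largest acinar share the lowest. At high glucose the library with the smallest acinar share again had the highest Slc25a4 share. The lowest was in replicate 3 (44.0%) and not in replicate 2 (44.6%), which had the largest acinar share.

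**Figure D3:**
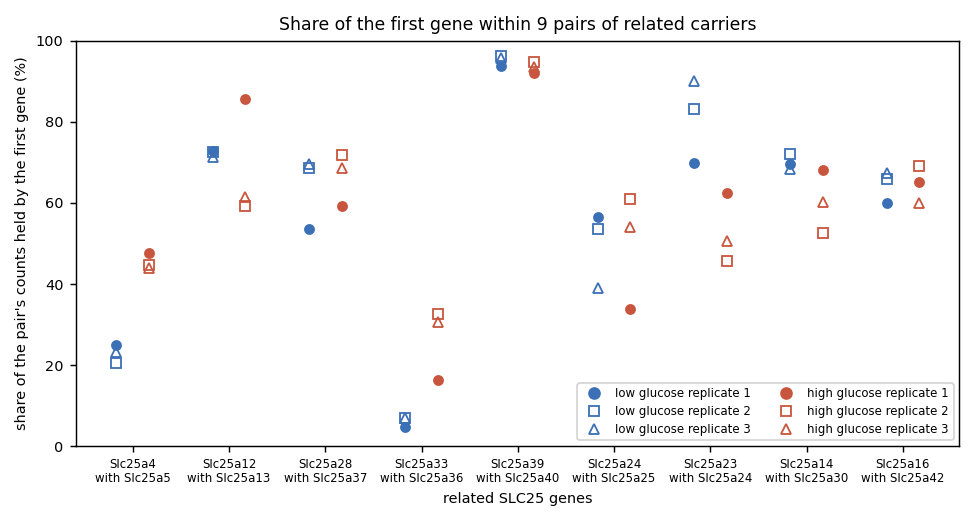
The share of a pair's counts held by its first gene (vertical axis, percent) is drawn for 9 pairs of related carriers, 1 point per library, low and high glucose apart. Slc25a4 lies at 20.6 to 24.9% at low and 44.0 to 47.7% at high glucose. The groups do not overlap in 4 of the 9 pairs. Beside this stand 45.9% of all tested genes, taken singly by CPM, and no such count was made for pairs outside the family.

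The calcium-regulated carriers exchange ATP-Mg for phosphate and so set the adenine nucleotide content of the matrix, with calcium sensed on the outer face. One of 3 tested members rose and 1 fell. Slc25a23 (ENSMUSG00000046329, chr17:57043711-57059863) had 62.4, 103.6 and 106.6 CPM at low glucose and 28.6, 32.75 and 32.75 at high glucose. The low-glucose libraries were all higher, with replicate 1 the lowest of them. Its log2 fold change was -1.53 ± 0.22 (edgeR adjusted p = 0.00354). Slc25a23 passed neither with library totals (-0.31, edgeR adjusted p = 0.244) nor with hormone and granule genes as the scale (-1.245, edgeR adjusted p = 0.0746). Replicate 1 was also the low-glucose library with the smallest acinar share, 48.9%, and a link between them was not tested. Slc25a23 overlaps Crb3 on the opposite strand, which held 2623 counts beside its 4162. Without a stated strand setting, reads of the overlap cannot be told apart.

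Slc25a25 (ENSMUSG00000026819, chr2:32414487-32451445) had 20.7, 17.95 and 18.1 CPM at low glucose and 33.6, 25.0 and 27.3 at high glucose. Every high-glucose library was above every low-glucose library. It rose by 0.60 ± 0.17 on the log2 scale (edgeR adjusted p = 0.0371). It did not pass in 4 of the 6 fits that leave out a library (low-glucose replicate 1, 2 or 3 or high-glucose replicate 3), with values of 0.67, 0.58, 0.58 and 0.64, and it overlaps Naif1 (399 counts against 2462). Slc25a24 had 26.9, 20.8 and 11.6 CPM at low glucose and 17.2, 39.0 and 32.1 at high glucose. Its groups overlapped and the log2 fold change of 0.56 did not pass (edgeR adjusted p = 0.301). Slc25a23 held 69.9, 83.3 and 90.2% of the counts of Slc25a23 and Slc25a24 at low glucose and 62.5, 45.6 and 50.5% at high glucose. The groups did not overlap, with an exact permutation p of 0.1, while the share of Slc25a24 within Slc25a24 and Slc25a25 overlapped (exact permutation p = 1). Slc25a41, listed with them as an ATP-Mg/phosphate carrier, had no count.

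The aspartate/glutamate carriers, Slc25a12 (aralar) and Slc25a13 (citrin), are steps of the malate-aspartate shuttle, which passes cytosolic NADH to mitochondria and is prominent in beta cells. None of the 3 tested members of this group passed. Slc25a12 had 31.05, 38.7 and 35.1 CPM at low glucose and 39.6, 25.5 and 25.8 at high glucose, so that high-glucose replicate 1 lay above the low-glucose group and the others below it. The log2 fold change was -0.20 (edgeR adjusted p = 0.504), 1.01 with library totals, and -0.44 without high-glucose replicate 1, where it passed. Slc25a13 had 11.6, 14.6 and 14.15 CPM at low glucose and 6.65, 17.5 and 16.1 at high glucose, with high-glucose replicate 1 the lowest of all. Its log2 fold change was -0.00 ± 0.36 with TMM and 1.11 with library totals. Slc25a12 thus held 85.6% of the counts of the pair in high-glucose replicate 1 and 59.3 to 72.75% in the other 5 libraries. The groups overlapped (exact permutation p = 0.9). That library also had the highest beta-cell marker share, 7.08%, and a link was not tested. Slc25a22, a glutamate carrier, had a log2 fold change of 0.33, and the glutamate carrier Slc25a18 held 2 counts.

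The dicarboxylate carrier Slc25a10 exchanges malate or succinate for phosphate. Slc25a10 (ENSMUSG00000025792, chr11:120491840-120499187) had 35.65, 31.1 and 23.4 CPM at low glucose and 10.9, 17.4 and 14.4 at high glucose. Its groups did not overlap, with low glucose above. It fell by 1.08 ± 0.24 on the log2 scale (edgeR adjusted p = 0.0148). With library totals the log2 fold change was -0.01. Leaving out low-glucose replicate 2 (-1.05) or high-glucose replicate 3 (-1.08) ended the call. Slc25a21, the oxodicarboxylate carrier, had no count.

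In the branch of the family that carries basic amino acids, 2 of 3 tested members fell and none rose. Slc25a45 (ENSMUSG00000024818, chr19:5877808-5885878), whose promoter is shown above, changed the most of all tested carriers. It had 37.5, 41.6 and 23.6 CPM at low glucose and 4.17, 5.74 and 5.80 at high glucose. The lowest low-glucose library was still above every high-glucose library, and the log2 fold change was -2.71 ± 0.27 (edgeR adjusted p = 0.00114). Slc25a15 (ENSMUSG00000031482, chr8:22375551-22398597), the ornithine carrier of the urea cycle, had 27.6, 29.6 and 23.0 CPM at low glucose and 6.62, 12.03 and 10.98 at high glucose. Again every low-glucose library was higher, with a log2 fold change of -1.44 ± 0.25 (edgeR adjusted p = 0.00685). Slc25a15 passed neither with library totals (-0.34, edgeR adjusted p = 0.398) nor with hormone and granule genes as the scale (-1.06, edgeR adjusted p = 0.144). Slc25a29, a carrier of arginine and lysine, had a log2 fold change of -0.47 (edgeR adjusted p = 0.263), or 0.76 with library totals. Acinar and intestinal markers were lower in the same high-glucose libraries, by the shares given above, and their part in these values was not tested.

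**Figure D4:**
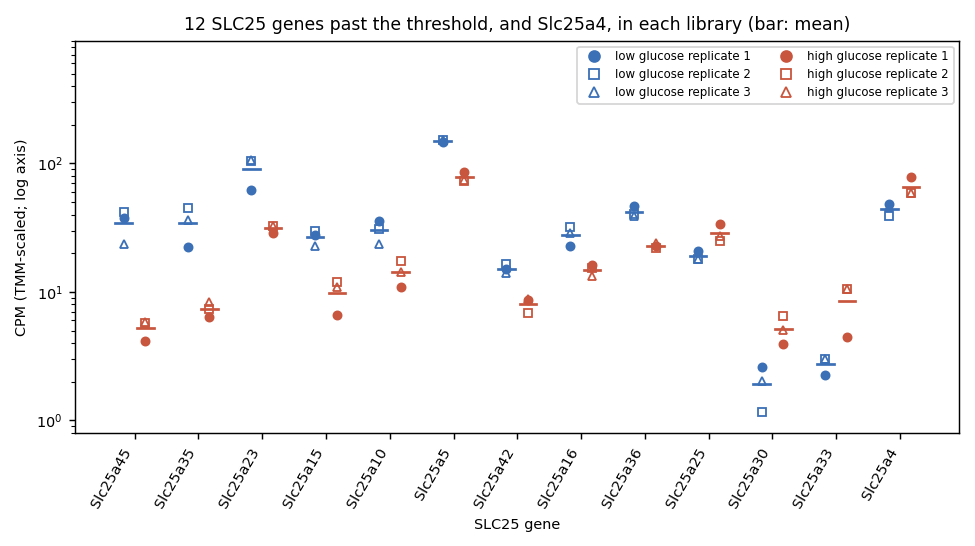
CPM (vertical axis, TMM-scaled, log axis) of the 12 SLC25 genes past the threshold, and of Slc25a4, is shown as 1 point per library with a bar at the mean, low and high glucose side by side. Slc25a45 lies between 23.6 and 41.6 CPM at low glucose and between 4.17 and 5.80 at high glucose.

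The glycine carrier Slc25a38, which feeds heme synthesis, and the branched-chain amino acid carrier Slc25a44 did not pass, with log2 fold changes of -0.19 and -0.22 (0.99 and 0.95 with library totals). Without high-glucose replicate 1, Slc25a44 lay at -0.46 and passed (edgeR adjusted p = 0.0275). The mitoferrins Slc25a28 and Slc25a37, which import iron, had log2 fold changes of 0.04 and -0.18 (the latter 0.90 with library totals) and did not pass. Slc25a28 had 25.4, 33.1 and 29.25 CPM at low glucose and 22.5, 32.4 and 35.3 at high glucose. Slc25a37 had 22.1, 15.1 and 12.7 CPM at low glucose and 15.5, 12.7 and 16.1 at high glucose. Both sets overlapped, and the share of Slc25a28 in the pair did too (exact permutation p = 0.6).

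Of the 9 carriers of coenzymes and cofactors, 2 fell (22.2%, against 14.2% of all genes) and none rose (against 13.3%). Both are coenzyme A carriers. Slc25a16 (ENSMUSG00000071253, chr10:62920633-62946498) had 22.6, 31.75 and 28.8 CPM at low glucose and 16.1, 15.4 and 13.2 at high glucose. Slc25a42 (ENSMUSG00000002346, chr8:70184340-70212305) had 15.15, 16.5 and 14 CPM at low glucose and 8.60, 6.84 and 8.82 at high glucose. In both genes the low-glucose libraries were all above the high-glucose ones. The log2 fold changes were -0.89 ± 0.18 for Slc25a16 (edgeR adjusted p = 0.0121) and -0.91 ± 0.19 for Slc25a42 (edgeR adjusted p = 0.0120). With library totals they were 0.32 and 0.25, and with hormone and granule genes as the scale neither passed. Without low-glucose replicate 2 the calls were lost, at -0.77 and -0.84, and that of Slc25a16 was also lost without high-glucose replicate 3, at -0.80. Their share of each other's counts overlapped between groups (exact permutation p = 0.9).

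The other 7 cofactor carriers did not pass. Slc25a39, the more abundant of the glutathione importers, had 95.8, 164.7 and 141.5 CPM at low glucose and 83.1, 97.4 and 91.05 at high glucose. Low-glucose replicate 1 lay within the high-glucose range, and the log2 fold change was -0.57 ± 0.22 (edgeR adjusted p = 0.0947), 0.65 with library totals. Without that replicate the value was -0.76 and passed. Its paralogue Slc25a40 had 6.44, 6.65 and 6.29 CPM at low glucose and 7.08, 5.44 and 6.35 at high glucose, a log2 fold change of -0.04, or 1.13 with library totals. Slc25a39 held 92.15 to 96.1% of the pair's counts in every library. Slc25a51 had 85.1, 93.4 and 96.2 CPM at low glucose and 77.1, 81.2 and 75.3 at high glucose, groups that did not overlap. Its log2 fold change of -0.23 did not pass (edgeR adjusted p = 0.233) and was 0.93 with library totals. The S-adenosylmethionine carrier Slc25a26, the folate and FAD carrier Slc25a32 and the peroxisomal Slc25a17 lay at -0.25 (0.89 with library totals), 0.10 and 0.13.

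**Figure D5:**
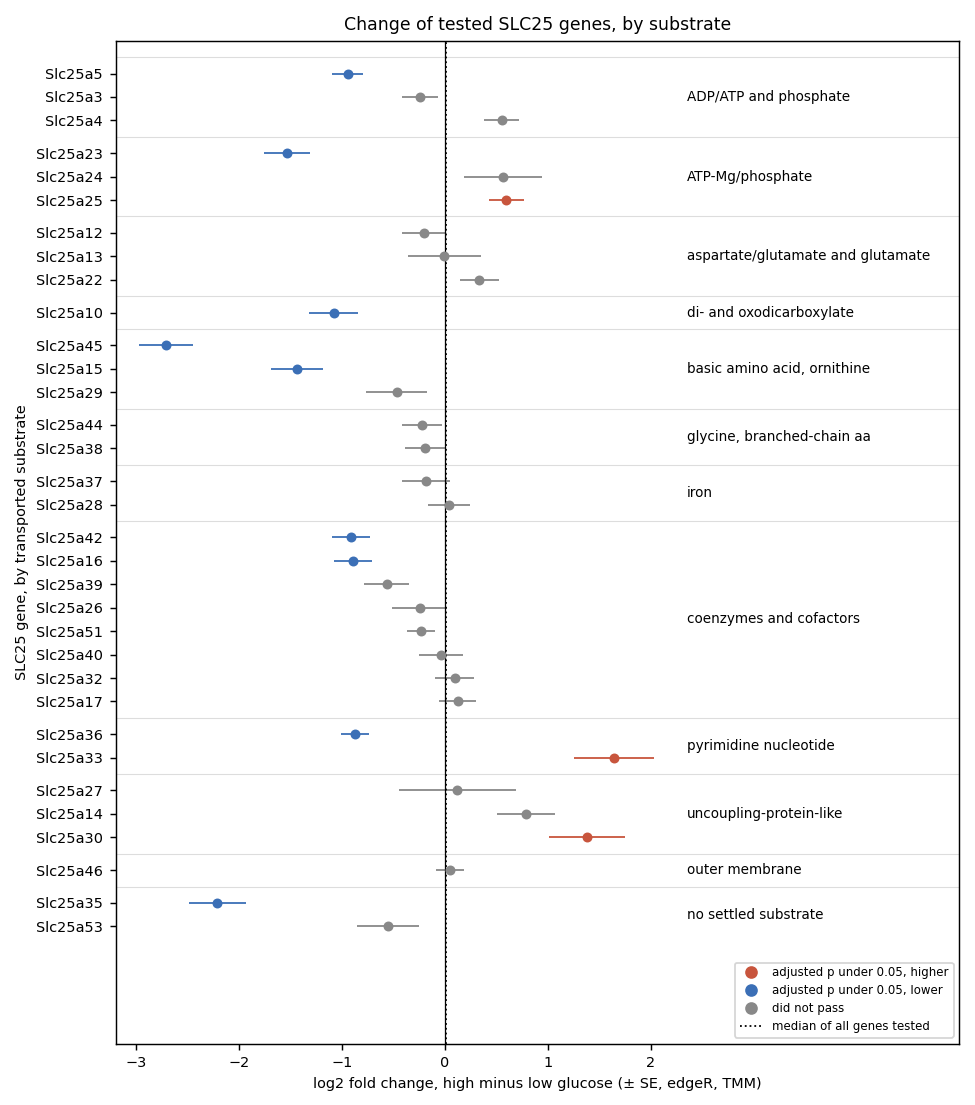
The log2 fold change (horizontal axis, high minus low glucose, bars ± SE from edgeR with TMM scaling) of the tested SLC25 genes is drawn by transported substrate, coloured by call. Both coenzyme A carriers, Slc25a16 at -0.89 and Slc25a42 at -0.91 (0.32 and 0.25 with library totals), and the basic amino acid branch lie below 0, and the uncoupling-protein-like genes lie above it.

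The pyrimidine nucleotide carriers bring in the building blocks of mitochondrial DNA and RNA, and the pair moved apart: Slc25a33 rose and Slc25a36 fell. Slc25a33 (ENSMUSG00000028982, chr4:149744036-149774277) had 2.26, 2.99 and 2.99 CPM at low glucose and 4.46, 10.5 and 10.6 at high glucose. Slc25a36 (ENSMUSG00000032449, chr9:97074961-97111157) had 46.4, 40.6 and 39.3 CPM at low glucose and 22.9, 21.9 and 24.0 at high glucose. Neither gene's groups overlapped, and high-glucose replicate 1 was the high-glucose library in which Slc25a33 was lowest. The log2 fold changes were 1.64 ± 0.39 for Slc25a33 (edgeR adjusted p = 0.0203) and -0.88 ± 0.14 for Slc25a36 (edgeR adjusted p = 0.00438), the latter 0.25 with library totals. The call of Slc25a33 was lost without any one of low-glucose replicates 1, 2 and 3 or high-glucose replicates 2 and 3, with values between 1.47 and 1.72. That of Slc25a36 held without each library in turn. Slc25a33 held 4.65, 6.87 and 7.06% of the pair's counts at low glucose and 16.3, 32.5 and 30.6% at high glucose. The mean share was 6.19 ± 1.34% against 26.45 ± 8.86% (SD, n = 3 each), with an exact permutation p of 0.1, the smallest possible, and 0.225 after adjustment. Across the high-glucose libraries the Slc25a33 share and the acinar share were both lowest in replicate 1, at 16.3 and 12.6%. Between the groups they went opposite ways, with the acinar share lower and the Slc25a33 share higher at high glucose. A link was not tested.

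The uncoupling-protein-like carriers resemble the thermogenic carrier of brown fat in sequence. One of the 3 rose and none fell. Slc25a30 (ENSMUSG00000022003, chr14:75760117-75787037) had 2.59, 1.16 and 2.04 CPM at low glucose and 3.96, 6.54 and 5.04 at high glucose. Every high-glucose library was above the low-glucose ones, with a log2 fold change of 1.38 ± 0.37 (edgeR adjusted p = 0.0306). Its counts were 31, 7 and 13 at low glucose and 112, 131 and 100 at high glucose. Low-glucose replicate 2 was under the count filter, so Slc25a30 was tested only with the help of high-glucose libraries. Its place among the carriers that rose is thus no separate support. Leaving out low-glucose replicate 2 (1.15) or 3 (1.42), or high-glucose replicate 2 (1.19) or 3 (1.42), ended the call. Slc25a14 had 5.94, 2.99 and 4.40 CPM at low glucose and 8.46, 7.24 and 7.66 at high glucose. Its groups did not overlap, but the log2 fold change of 0.79 ± 0.28 did not pass (edgeR adjusted p = 0.0761). With the replicate block it was 0.83 (edgeR adjusted p = 0.0416), and with Slc25a4 this took the carriers called higher from 3 to 5, where 15.7% of all genes were called higher, while 9 carriers were again called lower, where 17.7% of all genes were. Without low-glucose replicate 1, Slc25a14 lay at 1.07 and passed. Slc25a14 held 68.3 to 72% of the counts of Slc25a14 and Slc25a30 at low glucose and 52.5 to 68.1% at high glucose (exact permutation p = 0.1). Slc25a27 had a log2 fold change of 0.12 ± 0.57 and did not pass.

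Slc25a46 sits in the outer membrane and takes part in mitochondrial shape, and its log2 fold change was 0.05 (edgeR adjusted p = 0.797). Of the carriers with no settled substrate, Slc25a35 fell. Slc25a35 (ENSMUSG00000018740, chr11:68968131-68974365) had 22.2, 44.7 and 36.2 CPM at low glucose and 6.44, 7.34 and 8.42 at high glucose. The groups did not overlap, and as for Slc25a23 the lowest of the low-glucose libraries was replicate 1. The log2 fold change was -2.21 ± 0.28 (edgeR adjusted p = 0.0021), and its opposite-strand neighbour Rangrf held 135 counts beside 1260. Slc25a53 had a log2 fold change of -0.55 (0.61 with library totals) and did not pass, and the overlapping Zcchc18 held 2239 counts beside its 397. Slc25a26, described with the cofactors, shares its position with Lrig1 (1840 counts against 363).

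The remaining 10 carriers were under the count filter. Slc25a34, of no settled substrate, had 22, 10 and 4 counts at low glucose and 2, 2 and 0 at high glucose. Scaled by library size, the low-glucose level was 25.2 times the high-glucose level, with an exact 95% interval of 9.04 to 97.5 that covers counting error only. Slc25a43, of no settled substrate, had 2, 0 and 0 counts at low glucose and 11, 27 and 22 at high glucose, a ratio of 10.7 in the other direction with an interval of 2.84 to 90.4. In a fit with no filter these genes had log2 fold changes of -4.32 (edgeR adjusted p = 0.00227) and 3.54 (edgeR adjusted p = 0.0214). Slc25a48 held 14 counts at low and 45 at high glucose and Slc25a47 held 15 and 30, with ratio intervals that span 1. Slc25a2, the second ornithine carrier, held 1 and 4. Slc25a18 and Slc25a31 held at most 1 count in any library, and Slc25a21, Slc25a41 and Slc25a54 held none, which at a floor of 3 counts per library does not show that they are absent.

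The carriers work with other genes of the same membrane and pathways, listed by known function. The counts in this and the next paragraph stand beside 13.3% of all genes called higher and 14.2% called lower with TMM. These shares were 59.6% and 4.49% with library totals, and 7.52% and 7.5% with hormone and granule genes as the scale. Among 6 tested carrier-family genes outside the rule, none rose and 1 fell, the oxoglutarate carrier Slc25a11 with a log2 fold change of -0.61 ± 0.16 (edgeR adjusted p = 0.0259). None of them was called lower with library totals, with hormone and granule genes as the scale, with no filter, or without low-glucose replicate 2 or 3 or high-glucose replicate 2 or 3. Ucp2, the uncoupling protein of islets, had 215.8, 170.1 and 203.6 CPM at low glucose and 217.8, 281.7 and 305.5 at high glucose, a log2 fold change of 0.45 that did not pass (edgeR adjusted p = 0.139). Of 16 other inner-membrane transporters, 1 rose (6.25%, against 13.3% of all genes) and 3 fell (18.8%, against 14.2%). With library totals 8 were higher and none lower, with hormone and granule genes as the scale none was lower, and without high-glucose replicate 2 or 3 only 1 was lower. Mcub, which dampens the calcium uniporter, rose by 1.57 ± 0.25 on the log2 scale (edgeR adjusted p = 0.00489). Sfxn2, a sideroflexin, and Mpc2, a subunit of the pyruvate carrier, had log2 fold changes of -1.48 ± 0.17 (edgeR adjusted p = 0.00168) and -0.89 ± 0.20 (edgeR adjusted p = 0.0169). Of the 3 outer membrane channels only Vdac3 passed, at 0.81 ± 0.19 (edgeR adjusted p = 0.0207). None was called higher without low-glucose replicate 1 or 2 or high-glucose replicate 2 or 3, or with hormone and granule genes as the scale. Of 10 genes of the import route that inserts carriers into the inner membrane, 2 rose (20%, against 13.3% of all genes) and none fell (against 14.2%). The 2 were the outer pore Tomm40 at 0.90 ± 0.15 (edgeR adjusted p = 0.00589) and the small chaperone Timm10 at 1.51 ± 0.34 (edgeR adjusted p = 0.0167). Only 1 of the 10 was called higher without low-glucose replicate 1, without high-glucose replicate 3, with limma-voom, or with hormone and granule genes as the scale, while 4 were without high-glucose replicate 1 and all 10 with library totals.

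Among the 6 shuttle enzymes, 3 fell (50%, against 14.2% of all genes) and none rose (against 13.3%). The number lower was 1 without low-glucose replicate 1 or 2 or high-glucose replicate 2 or 3, and also 1 with hormone and granule genes as the scale. With library totals none was lower and 2 were higher. The glycerol phosphate shuttle enzymes Gpd1 and Gpd2 had log2 fold changes of -1.83 ± 0.31 (edgeR adjusted p = 0.00574) and -0.73 ± 0.20 (edgeR adjusted p = 0.0320), and the malate dehydrogenase Mdh1 -0.81 ± 0.23 (edgeR adjusted p = 0.0342). Got1 and Got2, the transaminases next to the aspartate/glutamate carriers, lay at 0.52 and 0.42 and did not pass. Of 20 enzymes fed by named carriers, 2 rose (10%, against 13.3% of all genes) and 6 fell (30%, against 14.2%). With library totals 9 were higher and 3 lower, and 1 was higher without low-glucose replicate 1, 2 or 3 or high-glucose replicate 3. Otc, which fell, and Gldc, which rose, passed the count filter only through the group in which they were higher. Gldc had 5, 2 and 2 counts at low glucose and 60, 21 and 27 at high glucose. The directions of both were thus bound to their entry and are no separate support. Bcat2 and Bckdhb, enzymes of branched-chain amino acid breakdown, fell by 2.39 ± 0.33 (edgeR adjusted p = 0.00296) and 1.97 ± 0.26 (edgeR adjusted p = 0.00256) on the log2 scale. Otc, which uses the ornithine that Slc25a15 carries, had 16.2, 6.15 and 2.04 CPM at low glucose and at most 1 count in a high-glucose library. The order of its low-glucose libraries is that of the intestinal marker share, 0.586, 0.276 and 0.118%, and a link was not tested. Over all 61 tested partner genes, 6 rose (9.84%, against 13.3% of all genes) and 13 fell (21.3%, against 14.2%), with a median log2 fold change of -0.27 against 0.01 over all genes. These counts include Gldc and Otc.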

How the data were processed

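The deposited values were raw counts of reads per gene, which the authors made with STAR 2.7.3a and HTSeq 0.6.1p1 on GRCm38, per the submitters' processing notes. Poly-A selection from 500 ng of RNA and 9 PCR cycles were used, per the labels' protocols. The sources used here do not state the annotation release, the strand setting or whether molecular barcodes were used, so intervals cover counting error only. The labels gave each library its group and replicate number. Names and coordinates came from GENCODE M21 on GRCm38; 495 genes without a name held 0.0141% of counts.

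The glucose groups were tested against each other in R 4.3.3 with edgeR 4.0.16, by its quasi-likelihood test (TMM scaling, filterByExpr with a minimum count of 10 and total of 15, 13996 genes, Benjamini-Hochberg adjusted p under 0.05 over all of them). SE is the size of the log2 fold change over the square root of its F statistic. CPM is counts per 1e+06 of the TMM-scaled library, and RPKM divides this by the kilobases of merged exons. Ratios of genes under the filter use summed counts scaled the same way. The fit was also run on simulated counts in which few genes changed, equally often in each direction. That run could not test the scaling between libraries as unlike as these. Promoter windows are RefSeq's on GRCm38.p6 and were given for 33 of the 44 carriers.

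Libraries with the same replicate number deviated together from their group means (correlations 0.403, 0.257 and 0.254, against -0.306 to 0.0748 for the others). No label states a pairing. A fit with the number as a block was therefore made beside the fit without it. The alternatives were DESeq2 1.42.0, limma-voom (limma 3.58.1), other scalings, other filters and each library left out.

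Per-library values are given for the 8 carriers with the largest called changes in each direction and a mean of at least 5 CPM, the 5 with the highest level per length, and the members of the pairs. Slc25a34, Slc25a43 and the partners with values that did not pass were named after their values were seen. The carriers, pairs, marker lists and partner lists were chosen with earlier results of these data known. The values of 1 tested carrier are counted in the totals and are not reported here.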

Additional observations from a re-analysis of the deposited data

How the results depend on the processing

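With library totals, 20 carriers were higher and 2 lower, their median log2 fold change was 0.973, and 8337 and 628 of all genes were called. The log2 fold change then had the other sign for Slc25a5 (0.23), Slc25a42 (0.25), Slc25a16 (0.32), Slc25a36 (0.25), Slc25a39 (0.65), Slc25a3 (0.92), Slc25a51 (0.93), Slc25a12 (1.01), Slc25a13 (1.11), Slc25a40 (1.13), Slc25a29 (0.76), Slc25a38 (0.99), Slc25a44 (0.95), Slc25a37 (0.90), Slc25a53 (0.61) and Slc25a26 (0.89). With hormone and granule genes as the scale, 2 carriers were lower, the median was 0.10, and 1053 genes were higher and 1050 lower. With totals that leave out the acinar and intestinal markers, an alternative chosen after seeing the data, the median was 0.0168, 4 carriers were higher and 8 lower, and 3007 genes were higher and 1401 lower. The carriers called higher numbered 5 with no filter (2282 of 23293 genes higher and 2151 lower), 5 with the replicate block and 0 with limma-voom (10.7% of all genes), which called 9 lower (14% of all genes). The block moved Slc25a4 and Slc25a14 past the threshold and changed no other carrier's call. Leaving out 1 library at a time gave 0 to 4 carriers higher and 6 to 12 lower, and 708 to 2793 genes higher and 1035 to 2892 lower. Slc25a45, Slc25a35, Slc25a23, Slc25a15, Slc25a5 and Slc25a36 passed without each library in turn. Of these, only Slc25a45 and Slc25a35 were also called lower with library totals (-1.61 and -0.98) and with hormone and granule genes as the scale. The cause of these differences was not tested. For Slc25a2, Slc25a18 and Slc25a31, with at most 2 counts in a library, no change was detectable at this depth.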

Other observations

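In 4 places in the genome, neighbouring carriers found by the rule within 100 kb of one another differed widely in counts, summed over the 6 libraries. Slc25a41 had 0 counts and Slc25a23, which lies 2056 bases away on chromosome 17 on the same strand, had 4162. Slc25a54 had 0 counts and Slc25a24, 6461 bases away on chromosome 3, had 2424. Slc25a43 had 62 and Slc25a5, 18448 bases away on the X chromosome, had 8984. Slc25a47 had 45 and Slc25a29, 162 bases away on the opposite strand of chromosome 12, had 567. Outside the rule, Ucp3 had 5 counts and Ucp2, 6904 bases away on chromosome 7, had 22758.

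Over the 43 promoter windows of the carriers, the GC box stood in 67.4% against 32.7% of all windows, the CCAAT box in 44.2% against 33.8%, the E-box in 16.3% against 6.02% and the TATA box in 4.65% against 12.4%. The cAMP response element stood in 4.65% against 1.55%, the AP-1 site in 2.33% against 6.75% and the NRF-1 site in 0% against 0.782%. The windows belong to 33 genes, so some genes count more than once. The median GC content was 57.6% in the carrier windows and 52.4% in all windows. The E-box was found in 3 of the 11 called carriers that had a window, Slc25a15, Slc25a33 and Slc25a36, which did not share a direction of change.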
